A study of Homo sapiens with 6 samples.

Results

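The 10 genes described here are regulators of apoptosis of the BCL2 family: *BCL2*, *BCL2L1*, *MCL1*, *BCL2A1*, *BAX*, *BAK1*, *BCL2L11*, *BBC3*, *PMAIP1* and *BID*. They were chosen by gene symbol from the 57820 genes of the deposited tables. The symbol matched for 9 of the 10, and *BID*, which the tables list under an altered symbol, was found by its Ensembl identifier. SEM is an established human line of B-cell acute lymphoblastic leukemia and carries the KMT2A-AFF1 fusion. Total RNA was sequenced from 3 libraries of SEM cells with wild-type CTCF (CTCF-WT) and 3 with CTCF that lacks the RNA-binding region (CTCF-dRBR), to ask whether this region of the DNA-binding protein CTCF affects gene expression. In all of these cells the endogenous CTCF carries a C-terminal miniAID-mClover3 tag and OsTIR1(F74G) is expressed constitutively, so that the auxin analog 5-Ph-IAA directs the tagged CTCF to degradation. According to the methods, 5-Ph-IAA was present for 24 h in both groups, and doxycycline at 1 µg/mL for the last 18 of these, to induce HA-tagged CTCF, wild-type in CTCF-WT and without the RNA-binding region in CTCF-dRBR. The sample labels name the doxycycline-driven transgene (TRE3G-HA-CTCF-dRBR) for CTCF-dRBR and no transgene for CTCF-WT. No label says whether the replicates came from separate cultures, so the p-values measure the spread between these libraries, which may be technical.

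The BCL2 family decides whether the outer mitochondrial membrane stays intact. Its anti-apoptotic proteins BCL2, BCL-xL (from *BCL2L1*), MCL1 and A1 (from *BCL2A1*) hold the effectors BAX and BAK (from *BAK1*) in check. The BH3-only proteins BIM (from *BCL2L11*), PUMA (from *BBC3*), NOXA (from *PMAIP1*) and BID bind the anti-apoptotic proteins, and some of them also activate BAX and BAK, which then form pores that release cytochrome c. *BCL2* is highly expressed in leukemias with KMT2A-AFF1, which respond to its inhibitor venetoclax.

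Total counts were between 51732177 and 53166735 in CTCF-WT and between 30034505 and 50457168 in CTCF-dRBR, lowest in CTCF-dRBR replicate 1. That library had no close match. Its Spearman's rho with the other libraries, over the log2 CPM of the genes tested, was between 0.913 and 0.968. The closest match of every other library had a rho between 0.992 and 0.997. The rho of 0.913 was that with CTCF-WT replicate 1. CTCF-WT replicate 3 and CTCF-dRBR replicate 3, of different groups, were each other's closest match. The log2 CPM of CTCF-dRBR replicate 1, set against the mean of all libraries, followed the GC content of the genes with rho = −0.78. That rho was 0.709, 0.674 and 0.339 in CTCF-WT replicates 1, 2 and 3. In CTCF-dRBR replicates 2 and 3 it was −0.417 and 0.504. It was thus positive in every CTCF-WT library and of both signs in CTCF-dRBR, so the GC trend partly went with the group. *CTCF* itself stood at 223 ± 21.98 CPM in CTCF-WT (SD, n = 3), against 263 ± 10.4 CPM in CTCF-dRBR, from which the endogenous and the induced transcripts cannot be told apart. Of 10 B-lineage markers, 9 reached 1 CPM (the count scaled to library size with the TMM factors of edgeR) in some library, with a summed level of 923 to 1118 CPM in CTCF-WT and 627 to 1089 CPM in CTCF-dRBR, and *DNTT* did not. Of 6 T-lineage markers only *TRAC* did, at 39.6 to 48.8 CPM, with *CD3D* at 0, and of 6 myeloid markers only *LYZ*, at 5.35 to 6.58 CPM. None of the erythroid, fibroblast or epithelial markers reached 1 CPM, and the highest summed level of these lists was 1.27 CPM, for the fibroblast markers in CTCF-dRBR.

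The levels of the 10 genes were first compared with each other on the deposited TPM, which are counts per gene length scaled to the same total in each library. The largest mean TPM over the 6 libraries were those of *BCL2* (58.7), *MCL1* (55.2), *BID* (48.3) and *PMAIP1* (38.5). The lead of *BCL2* rested on its 131 TPM in CTCF-dRBR replicate 1. It held place 3 in every CTCF-WT library and in CTCF-dRBR replicate 3. *BAX* followed with 24.3, ahead of *BCL2L11* with 7.37, *BCL2L1* with 7.01 and *BAK1* with 5.04. *BBC3* had a mean of 1.03 TPM and *BCL2A1* of 0.0433 TPM. By TPM, SEM cells thus held far more RNA of *BCL2* and *MCL1* than of *BCL2L1* in each of the 6 libraries. They also held more TPM of *BAX* than of *BAK1* in each, which depends on the gene length that RSEM used. Without length, *BAK1* had 82.7 to 102 CPM per 100 CPM of *BAX* in CTCF-WT and 45.8 to 73.9 in CTCF-dRBR. All annotated exons cover 2587 bases for *BAX* and 2212 for *BAK1*.

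**Figure D1:**
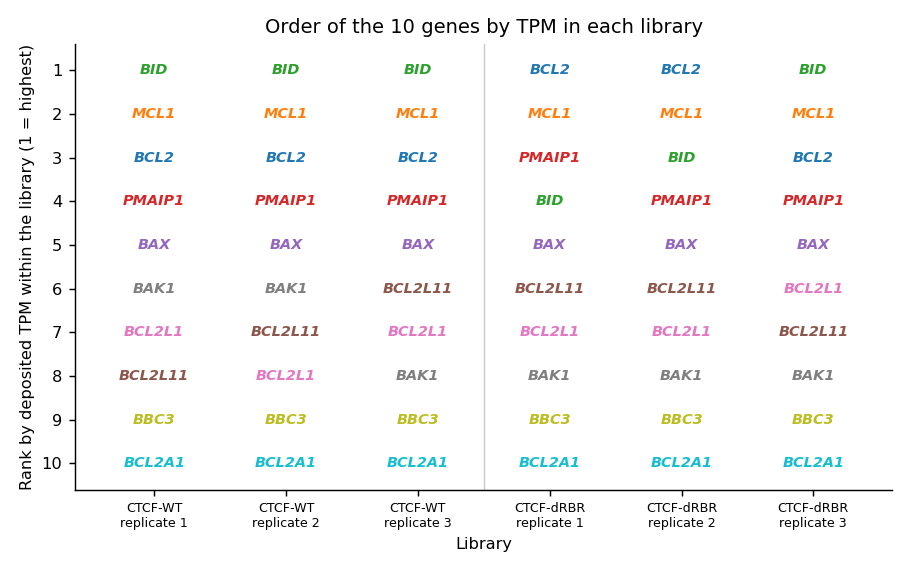
Order of the 10 genes by deposited TPM within each library (columns), where 1 on the vertical axis is the highest level. *MCL1* holds place 2 and *BAX* place 5 in all 6 libraries, and place 1 is held by *BID* in 4 libraries and by *BCL2* in CTCF-dRBR replicates 1 and 2.

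The order by TPM was firm only in parts. *MCL1* held place 2, *BAX* place 5, *BBC3* place 9 and *BCL2A1* place 10 in all 6 libraries. *BCL2* was above *MCL1* in 2 of 6 libraries and *MCL1* above *BID* in 2 of 6, and the ranges of these neighbours overlapped between libraries. Within libraries the order was *BID*, *MCL1*, *BCL2* in every CTCF-WT library and in CTCF-dRBR replicate 3. In CTCF-dRBR replicates 1 and 2 *BCL2* came first and *BID* was below *MCL1*. *BID* was above *PMAIP1* in 5 of 6 libraries, and *PMAIP1* above *BAX* in 6 of 6 although their ranges overlapped between libraries. *BCL2L11*, *BCL2L1* and *BAK1* exchanged places 6 to 8, with *BAK1* at place 6 in CTCF-WT replicates 1 and 2 and at place 8 in the other 4 libraries. The ranges of TPM did not overlap between *BAX* and *BCL2L11*, between *BAK1* and *BBC3*, or between *BBC3* and *BCL2A1*.

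The 2 groups were then compared on the expected counts by limma-voom over the 14044 genes with at least 1 CPM in some library, 9 of the 10 members among them. No member passed an adjusted p of 0.05, and neither did any other gene (0% of the genes tested). The smallest adjusted p among the members was 0.142, for *BAK1*. At an unadjusted p under 0.05 there were 3 of 9 members, all lower in CTCF-dRBR (*BAK1*, *BAX* and *BCL2L11*), and 12.8% of the genes tested were lower at that level. edgeR's quasi-likelihood test also passed 0 genes, while 3460 genes had an unadjusted p under 0.05. In the CPM of the single libraries the groups did not overlap for 3 of 9 members that were lower in CTCF-dRBR (the same 3 genes), against 17.5% of the genes tested, and for 1 that was higher (*BCL2*), against 20.0%. In such bulk samples fewer cells of a type and less RNA per cell cannot be told apart. The median log2 fold change of the 9 members was −0.29, beside −0.0076 over all genes tested.

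Other tests and units gave other counts. With DESeq2 2 of 9 members passed, both lower (*BAK1* and *BAX*), where 11.5% of genes passed, 5.39% higher and 6.15% lower. The fit by voomWithQualityWeights gives each library a weight. CTCF-WT replicate 2 had a weight of 5.65 and CTCF-dRBR replicate 2 of 6.19. The other libraries had 0.0969 (CTCF-dRBR replicate 1) to 1.26, so this fit rested mostly on replicate 2 of each group. In it 7 of 9 members passed, 2 higher (*BCL2* and *MCL1*) and 5 lower, where 68.2% of genes passed, 32.5% higher and 35.8% lower. On the deposited TPM, none of the 9 members passed in limma-trend. There 5.93% of genes passed with a pseudocount of 1 (5.17% higher and 0.762% lower), and 5.41% with 0.1 (4.53% higher and 0.883% lower). The median of all genes was itself shifted to 0.40 and 0.54 on those scales.

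**Figure D2:**
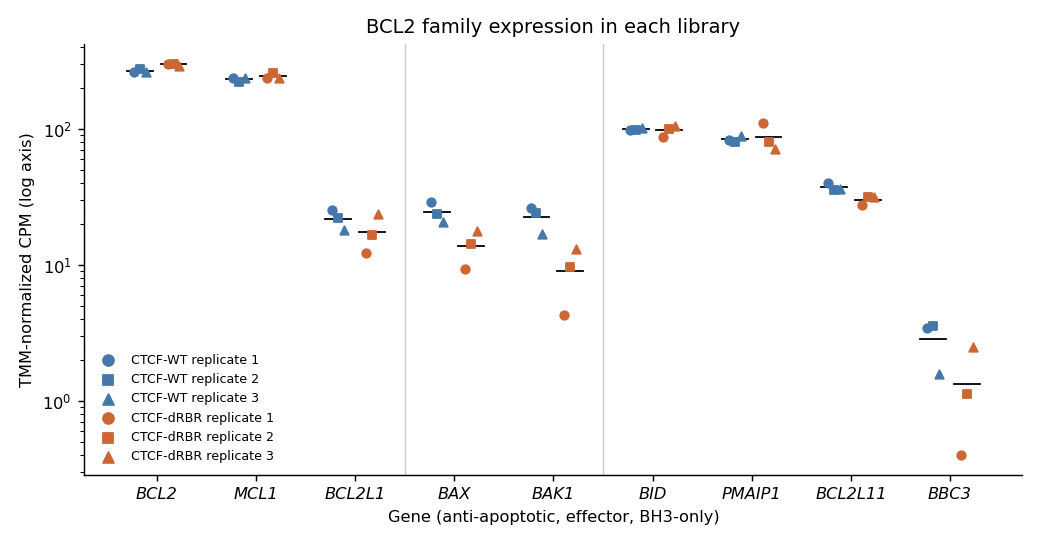
TMM-normalized CPM on a log axis for the 9 members tested (horizontal axis, ordered by role), with 1 point per library, colored by group and shaped by replicate, and black bars at the group means. All 3 CTCF-dRBR points lie below all 3 CTCF-WT points for *BAX*, *BAK1* and *BCL2L11*, and above them for *BCL2*. *BCL2A1*, at 4 counts or fewer in every library, is not drawn.

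The promoters of the 4 members whose groups did not overlap in CPM are printed here, since CTCF binds DNA that often holds the letters for which it was named, CCCTC. Each run is 300 bases of the gene's strand, 5′ to 3′, from 250 bases before the start of the RefSeq transcript, in build GRCh38.p14, and capitals mark CCCTC or its reverse complement GAGGG.
*BAK1*, chr6:33580227-33580526, minus strand: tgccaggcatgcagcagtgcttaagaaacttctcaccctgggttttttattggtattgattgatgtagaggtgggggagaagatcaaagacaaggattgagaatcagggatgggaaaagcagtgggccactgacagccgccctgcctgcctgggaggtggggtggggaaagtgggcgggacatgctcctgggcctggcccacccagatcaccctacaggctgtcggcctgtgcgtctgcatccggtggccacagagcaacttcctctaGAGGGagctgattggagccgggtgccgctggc
*BAX*, chr19:48954625-48954924, plus strand: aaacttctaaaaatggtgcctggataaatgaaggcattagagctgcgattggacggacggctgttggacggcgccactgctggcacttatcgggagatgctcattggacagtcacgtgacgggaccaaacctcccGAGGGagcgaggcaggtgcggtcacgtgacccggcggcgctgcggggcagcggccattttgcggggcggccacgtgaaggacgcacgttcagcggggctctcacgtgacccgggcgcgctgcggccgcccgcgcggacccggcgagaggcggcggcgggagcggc
*BCL2L11*, chr2:111120664-111120963, plus strand: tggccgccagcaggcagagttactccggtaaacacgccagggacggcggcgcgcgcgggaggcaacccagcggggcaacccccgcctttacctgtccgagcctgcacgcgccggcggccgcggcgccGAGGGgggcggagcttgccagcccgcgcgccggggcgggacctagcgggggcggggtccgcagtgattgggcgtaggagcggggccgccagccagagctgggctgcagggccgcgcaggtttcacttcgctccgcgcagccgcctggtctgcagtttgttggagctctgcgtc
*BCL2*, chr18:63319720-63320019, minus strand: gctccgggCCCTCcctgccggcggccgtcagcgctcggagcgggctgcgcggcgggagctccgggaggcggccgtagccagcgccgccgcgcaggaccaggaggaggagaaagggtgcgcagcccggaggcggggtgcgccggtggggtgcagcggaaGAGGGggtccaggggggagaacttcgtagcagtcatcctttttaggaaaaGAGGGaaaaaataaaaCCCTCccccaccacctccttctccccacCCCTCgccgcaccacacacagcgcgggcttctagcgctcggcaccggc
The promoter of *BCL2* held 5 matches and each of the other 3 held 1. Of the members not printed, *BCL2L1* held 1 match, and *BCL2A1*, *BBC3*, *PMAIP1* and *BID* held 0. *MCL1* had no promoter in this set. The GC content of the promoter was 70.7% for *BCL2*, 74.7% for *BCL2L11*, 67.3% for *BAX* and 58.7% for *BAK1*. The median of all promoters was 58.3%. Of 27305 RefSeq promoters of this length, 70.3% held at least 1 match on either strand and the median was 1. The longer letters AGNNGGC, part of the known CTCF motif, were searched in the same way and were found in 64.0% of all promoters. They were found 2 times in those of *BCL2*, *BAK1*, *BCL2L11*, *PMAIP1* and *BID*. They were found 1 time in those of *BAX*, *BCL2L1* and *BCL2A1*, and 0 times in that of *BBC3*. These are matches of letters only, and CTCF binding was not measured in these files.

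Among the anti-apoptotic genes, *BCL2* (ENSG00000171791.10, GRCh37 chromosome 18, 60790579 to 60987361, minus strand) had 262, 274 and 261 CPM in the CTCF-WT libraries, given here and below in the order of replicates 1, 2 and 3. In the CTCF-dRBR libraries it had 299.9, 302 and 292 CPM. The 3 values of CTCF-dRBR were all above those of CTCF-WT. The log2 fold change was small, at 0.17 (standard error 0.078, 95% interval −0.024 to 0.35, adjusted p = 0.222 from limma-voom), and p was 0.1 in a two-sided exact permutation test of CPM, the smallest p possible with 3 against 3 libraries. It was 0.16 without CTCF-dRBR replicate 1. With the trend over gene GC content removed from each library it was −0.018 and the groups overlapped, with 278 to 311 CPM in CTCF-WT and 264 to 314 CPM in CTCF-dRBR.

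On the deposited TPM the picture of *BCL2* was different. CTCF-WT had 24.1, 32.6 and 48.0 TPM and CTCF-dRBR had 131, 73.1 and 43.3 TPM, so that the groups overlapped and the values of each group lay far apart. The scale of TPM itself moved between libraries, and protein-coding genes held between 30.2% and 63.2% of it. Rescaled to protein-coding genes, *BCL2* had 79.7 to 91.6 TPM in CTCF-WT and 99.5 to 207 TPM in CTCF-dRBR, without overlap. The gene length that RSEM used also moved. The ratio of count to TPM, set to its mean in CTCF-WT and to the median of all genes in the library, is proportional to that effective length. For *BCL2* it was 0.465 in CTCF-dRBR replicate 1 and 0.823 in CTCF-dRBR replicate 2, against 0.976 to 1.05 in the other 4 libraries. In CTCF-dRBR replicate 1 the 5th percentile of all genes was 0.607.

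*MCL1* (ENSG00000143384.8, chromosome 1, 150533371 to 150552214, minus strand), whose protein is short-lived, stood at 236, 222 and 238 CPM in CTCF-WT, against 237, 256 and 238 CPM in CTCF-dRBR. The groups overlapped, and the log2 fold change of 0.072 had a 95% interval from −0.13 to 0.28 (limma-voom, adjusted p = 0.553). In TPM rescaled to protein-coding genes the groups did not overlap, with 98.4 to 117 in CTCF-WT and 121 to 134 in CTCF-dRBR. *BCL2L1* (ENSG00000171552.8, chromosome 20, 30252255 to 30311792, minus strand) stood at 25.4, 22.3 and 18.1 CPM in CTCF-WT, against 12.2, 16.7 and 23.5 CPM in CTCF-dRBR. The lowest value was that of CTCF-dRBR replicate 1, and the 3 values of each group spread widely. Its log2 fold change of −0.33 had a standard error of 0.26 (limma-voom, adjusted p = 0.384). It was −0.13 once CTCF-dRBR replicate 1 was left out, and 0.20 after removal of the GC trend. *BCL2L1* shares 1735 exonic bases with the antisense RNA *ABALON* on the opposite strand. *BCL2A1* (ENSG00000140379.7, chromosome 15), a target of NF-κB, had 0, 3 and 1 counts in CTCF-WT and 4, 0 and 3 counts in CTCF-dRBR, and was not tested. The 3 counts that an observed 0 allows correspond to 0.0564 to 0.0999 CPM, for counting error only, so *BCL2A1* was at or near the limit of detection in all 6 libraries.

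Both effectors had lower counts in CTCF-dRBR. *BAK1* (ENSG00000030110.8, chromosome 6, 33540324 to 33548070, minus strand), which encodes the effector that sits in the mitochondrial membrane, stood at 26.1, 24.2 and 16.99 CPM in CTCF-WT, against 4.29, 9.62 and 13.1 CPM in CTCF-dRBR. The groups did not overlap, and the lowest value was that of CTCF-dRBR replicate 1. This was a log2 fold change of −1.39 (standard error 0.395, 95% interval −2.34 to −0.44, limma-voom, adjusted p = 0.142), or 22.4 ± 4.82 CPM (SD, n = 3) against 9.02 ± 4.46 CPM. Without CTCF-dRBR replicate 1 it was −0.97 (adjusted p = 0.064 from limma), and CTCF-dRBR had a mean of 11.4 CPM.

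*BAK1* was lower without overlap on each scale examined, which were counts, CPM, deposited TPM, TPM rescaled to protein-coding genes and CPM with the GC trend removed. In the deposited TPM it had 5.75, 6.50 and 6.94 in CTCF-WT and 1.96, 4.37 and 4.69 in CTCF-dRBR, again without overlap, and its relative effective length was between 0.993 and 1.02 in all 6 libraries. With the GC trend removed it had 19.9, 19.2 and 16.9 CPM in CTCF-WT and 9.13, 11.3 and 11.9 CPM in CTCF-dRBR. On that scale the log2 fold change was −0.78 (standard error 0.12, limma-voom, adjusted p = 0.023), where 9.71% of the genes tested passed, 4.26% higher and 5.46% lower. *BAK1* also passed with DESeq2 (adjusted p = 0.022) and with voomWithQualityWeights, where 11.5% and 68.2% of genes passed. The call with the GC trend removed was lost without CTCF-WT replicate 1 (adjusted p = 0.113 from limma), CTCF-WT replicate 2 (0.125), CTCF-dRBR replicate 2 (0.111) or CTCF-dRBR replicate 3 (0.058), while the log2 fold change stayed between −0.85 and −0.68 over all 6 omissions. The counts of *BAK1* are not all whole numbers. Its pseudogene copy *BAK1P1*, with which it could share reads, had 1.09 to 2.45 CPM in CTCF-WT and 0.596 to 1.47 CPM in CTCF-dRBR.

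*BAX* (ENSG00000087088.15, chromosome 19, 49458072 to 49465055, plus strand), the effector that moves from the cytosol to mitochondria, stood at 29.2, 23.7 and 20.5 CPM in CTCF-WT, against 9.36, 14.3 and 17.8 CPM in CTCF-dRBR. The groups did not overlap, and CTCF-dRBR replicate 1 was again lowest. Its log2 fold change of −0.83 (standard error 0.26, 95% interval −1.44 to −0.21, limma-voom, adjusted p = 0.151) was −0.60 once CTCF-dRBR replicate 1 was left out. The size of the difference moved with the scale. With the GC trend removed the groups overlapped, at 17.9 to 21.1 CPM in CTCF-WT and 15.6 to 22.4 CPM in CTCF-dRBR, and the log2 fold change of −0.14 had an adjusted p of 0.531 (limma-voom). With CTCF-dRBR replicate 1 left out as well it was −0.27 (95% interval −0.50 to −0.045, limma-voom, adjusted p = 0.080). In the deposited TPM CTCF-WT had 16.8, 17.9 and 34.7 for *BAX* and CTCF-dRBR had 22.6, 28.3 and 25.4 (two-sided exact permutation test, p = 0.8). The relative effective length of *BAX* was 1.18, 1.11 and 0.758 in CTCF-WT and 0.599, 0.719 and 0.774 in CTCF-dRBR. *BAX* passed with DESeq2 (adjusted p = 0.039) and with voomWithQualityWeights, where 11.5% and 68.2% of genes passed.

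**Figure D3:**
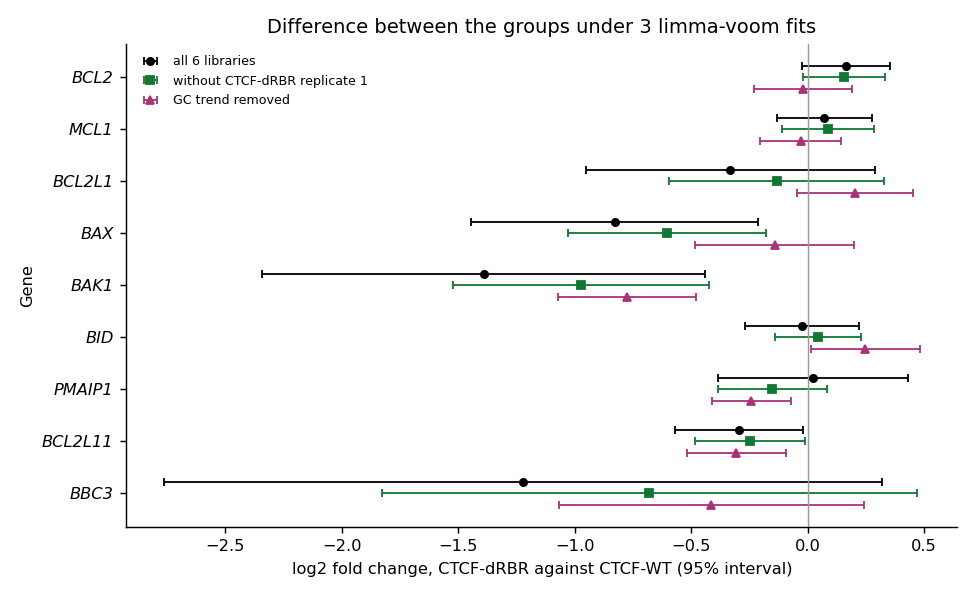
Log2 fold change of CTCF-dRBR against CTCF-WT (horizontal axis) with its 95% interval for the 9 members tested (vertical axis), from limma-voom with all 6 libraries, without CTCF-dRBR replicate 1, and with the trend over gene GC content removed. *BAK1* and *BCL2L11* stay below 0 with their whole interval in all 3 fits, while *BAX* moves from −0.83 to −0.14 once the GC trend is removed.

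Of the 4 BH3-only genes, 1 had groups that did not overlap in CPM. This was *BCL2L11* (ENSG00000153094.17, chromosome 2, 111876955 to 111926021, plus strand), which encodes BIM. It stood at 40.4, 35.3 and 36.1 CPM in CTCF-WT, against 27.7, 31.4 and 31.5 CPM in CTCF-dRBR. For BIM this gave a log2 fold change of −0.29 (standard error 0.11, 95% interval −0.57 to −0.019, limma-voom, adjusted p = 0.186). It was −0.25 once CTCF-dRBR replicate 1 was left out and −0.31 after removal of the GC trend, where the groups again did not overlap (37.4 to 43.2 CPM against 29.4 to 32.8 CPM). In the deposited TPM the groups overlapped, with 5.22, 6.00 and 9.01 in CTCF-WT and 8.03, 8.92 and 7.01 in CTCF-dRBR. On TPM rescaled to protein-coding genes they did not, with 16.7 to 17.3 in CTCF-WT and 12.7 to 16.4 in CTCF-dRBR. *BCL2L11* overlaps 727 exonic bases of the long noncoding RNA *MIR4435-2HG* on the opposite strand, which had 4.78 to 5.71 CPM.

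*PMAIP1* (ENSG00000141682.11, chromosome 18, 57567228 to 57571537, plus strand), which encodes NOXA, the partner of MCL1, stood at 82.8, 80.3 and 88.3 CPM in CTCF-WT, against 111, 80.4 and 71.3 CPM in CTCF-dRBR. The highest and the lowest value were both in CTCF-dRBR. NOXA RNA had a log2 fold change of 0.022 (standard error 0.17, limma-voom, adjusted p = 0.932). It was −0.15 once CTCF-dRBR replicate 1 was left out, and −0.24 after removal of the GC trend, where the groups did not overlap (93.6 to 101 CPM against 78.2 to 88.7 CPM). With both changes together it was −0.28 and passed (adjusted p = 0.016 from limma-voom), as did 13.4% of the genes tested, in the lower direction.

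*BID* (ENSG00000015475.14, chromosome 22, 18216904 to 18257536, minus strand), whose protein is cut by caspase-8 and so links death receptors to mitochondria, stood at 97.4, 98.3 and 102 CPM in CTCF-WT, against 87.2, 99.6 and 105 CPM in CTCF-dRBR. The BID difference of −0.024 on the log2 scale (95% interval −0.27 to 0.22, limma-voom, adjusted p = 0.877) became 0.25 after removal of the GC trend, where the groups did not overlap and CTCF-dRBR was higher. On that scale 3 of 9 members (*BAK1*, *BCL2L11* and *PMAIP1*) were lower without overlap, against 20.9% of genes, and 1 (*BID*) was higher, against 18.6%. *BBC3* (ENSG00000105327.11, chromosome 19, 47724079 to 47736023, minus strand), which encodes PUMA, stood at 3.46, 3.58 and 1.59 CPM in CTCF-WT, against 0.401, 1.12 and 2.504 CPM in CTCF-dRBR. Its counts were few, from 184 in CTCF-WT replicate 2 down to 12 in CTCF-dRBR replicate 1, and the groups overlapped. With a log2 fold change of −1.22, the 95% interval was wide and ran from −2.76 to 0.32 (limma-voom, adjusted p = 0.246). It was −0.68 once CTCF-dRBR replicate 1 was left out, −1.86 once CTCF-dRBR replicate 3 was left out, and −0.41 after removal of the GC trend.

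The GC content of the exons differed between the members and moved with these values. It was 64.4% for *BBC3*, 60.7% for *BAX*, 58.8% for *BAK1* and 57.8% for *BCL2L1*, the 4 tested members with the lowest log2 fold changes. It was 52.99% for *BID*, 47.4% for *BCL2L11*, 45.5% for *MCL1*, 43.3% for *BCL2* and 40.0% for *PMAIP1*. The 4 GC-rich members each had their lowest CPM in CTCF-dRBR replicate 1, as did *BCL2L11* and *BID*, and *PMAIP1*, the poorest in GC of those tested, had its highest CPM there. The part of GC content in these differences was not tested beyond the removal of its trend. After removal of the GC trend 2 of these 4 (*BAX* and *BBC3*) had intervals that included 0 with negative values, *BCL2L1* had a positive value, and *BAK1* stayed lower.

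Because apoptosis depends on the balance of these proteins, pairs of members were also compared within each library, where scaling between libraries cancels out but a GC trend does not. Per 100 CPM of *BCL2* there were 11.2, 8.65 and 7.87 CPM of *BAX* in CTCF-WT and 3.12, 4.74 and 6.09 in CTCF-dRBR. For *BAK1* the values were 9.99, 8.82 and 6.50 in CTCF-WT and 1.43, 3.19 and 4.503 in CTCF-dRBR. The groups did not overlap in either ratio. This had to follow from the CPM above, where *BAX* and *BAK1* were lower and *BCL2* higher without overlap, so it is not a separate result. With the GC trend removed, an alternative added after the data were seen, *BAX* had 6.91, 5.76 and 7.31 CPM per 100 CPM of *BCL2* in CTCF-WT, against 8.48, 5.59 and 4.97 in CTCF-dRBR, and the groups overlapped. For *BAK1* they did not, with 6.07 to 6.51 in CTCF-WT and 3.47 to 3.77 in CTCF-dRBR. Per 100 CPM of *MCL1*, *BAK1* had 11.1, 10.9 and 7.15 CPM in CTCF-WT and 1.81, 3.75 and 5.51 CPM in CTCF-dRBR. Per 100 CPM of *BAX*, *BAK1* had 82.7 to 102 CPM in CTCF-WT and 45.8 to 73.9 CPM in CTCF-dRBR.

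The ratio of *BCL2* to *MCL1* overlapped between the groups. *BCL2* stood at 109.9 to 123 CPM per 100 CPM of *MCL1* in CTCF-WT and at 118 to 126 in CTCF-dRBR. Per 100 CPM of the 4 anti-apoptotic genes, the 4 BH3-only genes together had 42.9 ± 1.06 CPM in CTCF-WT (SD, n = 3), against 38.7 ± 2.17 CPM in CTCF-dRBR, without overlap (41.9 to 44.02 against 36.9 to 41.1). The groups overlapped once the GC trend was removed and *BCL2A1* left out, at 39.3 to 43.5 in CTCF-WT and 36.8 to 47.8 in CTCF-dRBR. For the 2 effectors the values were 9.02 ± 1.67 and 4.08 ± 1.55 CPM, and with the GC trend removed 6.74 ± 0.243 and 5.20 ± 0.776 CPM. In CPM the divisor of both ratios holds *BCL2*, which was higher without overlap. Neither ratio is thus a result separate from the CPM of the single genes. On the deposited TPM, effectors stood at 33.0 to 37.5 per 100 in CTCF-WT and at 11.4 to 28.7 in CTCF-dRBR. These ratios and sums were formed over genes chosen with results known, and no p was computed for them.

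**Figure D4:**
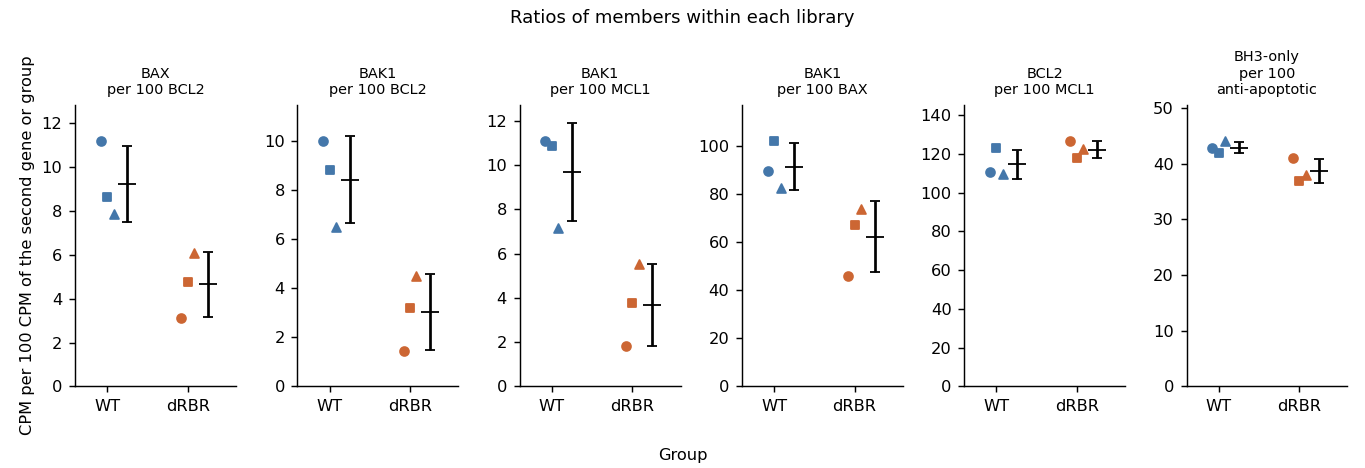
Ratios of members within each library, in CPM per 100 CPM of the second gene or group (vertical axes from 0), for CTCF-WT and CTCF-dRBR (horizontal axis), with 1 point per library and the mean and SD of each group in black. The 3 CTCF-dRBR points lie below all CTCF-WT points in every panel except that of *BCL2* per 100 *MCL1*, where the groups overlap. For *BAX* and *BAK1* per 100 *BCL2* this had to follow from the CPM of the single genes. The divisor of the BH3-only panel also holds *BCL2*, which was higher without overlap. With the GC trend removed, which is not drawn, the groups also overlap for *BAX* per 100 *BCL2* and for the BH3-only genes.

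The genes whose values ran most closely with those of *BCL2* and *MCL1* over the 6 libraries were looked for among all 14044 genes tested, by the root mean square difference of log2 CPM after each gene was centered on its own mean. For *BCL2* these were *NTPCR* (0.0172), *ACYP2* (0.0207) and *TANC2* (0.0221), and for *MCL1* they were *SPG21* (0.0245), *TMEM87A* (0.0247) and *POLR3GL* (0.0272). None of the other members was among them.

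Of 65 other genes of the apoptosis machinery that were listed by role, 55 were tested. None passed an adjusted p of 0.05, 8 were higher and 8 lower in CTCF-dRBR at an unadjusted p under 0.05 (12.6% and 12.8% of all genes tested), and the median log2 fold change was −0.081. The 13 remaining relatives of the BCL2 family included 7 tested genes. Of these the mitophagy receptors *BNIP3L* and *BNIP3* were higher. *BNIP3L* stood at 151 ± 8.49 CPM in CTCF-WT (SD, n = 3), against 252 ± 52.9 CPM in CTCF-dRBR. This is a log2 fold change of 0.72 (limma-voom, adjusted p = 0.114), and that of *BNIP3* was 0.45. The BH3-only gene *BAD* (log2 fold change −1.40) and the anti-apoptotic gene *BCL2L2* (−0.83) were lower, but their groups overlapped in CPM, with 10.4 to 17.4 against 2.07 to 11.6 CPM for *BAD*. *BOK*, a relative that resembles the effectors, had 0 counts in all 6 libraries.

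Downstream of the mitochondria, *APAF1*, the scaffold of the apoptosome, had 65.9 to 70.7 CPM in CTCF-WT and 77.4 to 89.3 CPM in CTCF-dRBR (log2 fold change 0.28, adjusted p = 0.164 from limma-voom). *CYCS*, which encodes cytochrome c, had 154 to 167 CPM in CTCF-WT and 124 to 147 CPM in CTCF-dRBR (log2 fold change −0.27). The mitochondrial flavoprotein gene *AIFM1* (−0.55) and the nuclease gene *ENDOG* (−0.86) were lower at an unadjusted p under 0.05, as was the death receptor adaptor *TRADD* (−0.90). The inhibitor of apoptosis genes *NAIP* (0.40) and *BIRC6* (0.22) and the death receptor gene *FAS* (0.80, at 0.673 to 1.94 CPM) were higher. Of the 9 caspase and apoptosome genes, *APAF1* and *CYCS* alone had an unadjusted p under 0.05. With the GC trend removed, *CYCS* and *AIFM1* passed an adjusted p of 0.05 in limma-voom, while *ENDOG*, *TRADD*, *BAD* and *BCL2L2* did not. On that scale 5.46% of the genes tested passed in the lower direction.

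Genes of the stress response and regulators of the members were read from the same fit. *CDKN1A*, which encodes an inhibitor of the cell cycle, stood at 97.9 ± 16.2 CPM in CTCF-WT (SD, n = 3), against 75.8 ± 40.7 CPM in CTCF-dRBR, with overlap. *MDM2*, which encodes a ubiquitin ligase, stood at 175 ± 6.85 CPM, against 206 ± 30.8 CPM, also with overlap. *ZMAT3*, an RNA-binding protein gene of the stress response, had an unadjusted p under 0.05 (log2 fold change 0.39). *FOXO1*, a transcription factor that can activate *BCL2L11*, had the smallest adjusted p of the list (0.0959 from limma-voom). CTCF-WT had 5.40, 6.23 and 6.10 CPM and CTCF-dRBR 12.9, 11.6 and 11.6 CPM, without overlap and with a log2 fold change of 1.03. *ATF4* and *DDIT3*, transcription factors of the stress response that can activate *BBC3*, *PMAIP1* and *BCL2L11*, had log2 fold changes of −0.40 and −0.43. With CTCF-dRBR replicate 1 left out, *FOXO1* (0.97) and *BNIP3L* (0.56), higher, and *AIFM1* (−0.74), lower, passed an adjusted p of 0.05 among the 55 genes. Of all genes 3.90% passed there, 1.52% higher and 2.37% lower. The log2 fold change of *CDKN1A* was 0.24 once the GC trend was removed and that library left out, against −0.48 with all libraries.

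**Figure D5:**
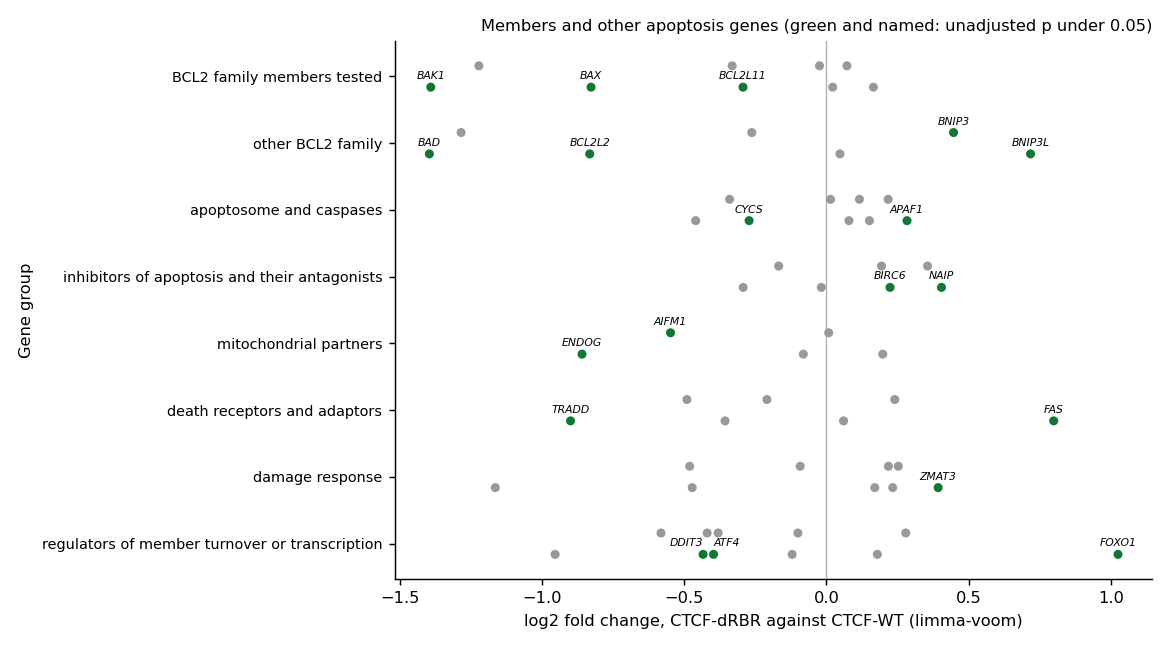
Log2 fold change of CTCF-dRBR against CTCF-WT from limma-voom with all 6 libraries (horizontal axis) for the 9 members tested and the 55 other apoptosis genes tested, by group (vertical axis), with 1 point per gene. Green points with names have an unadjusted p under 0.05 (3 members and 16 other genes), and 0 genes passed after adjustment.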

How the data were processed

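Ribosomal RNA was removed from total RNA of SEM cells, and 6 libraries were sequenced, 3 for each form of CTCF. The authors used Trim Galore (version 0.6.3) for trimming, STAR (version 2.7.9a) for alignment to GRCh37 (hg19) and RSEM (version 1.3.1) for quantification against Gencode. The deposited expected counts are estimates of RSEM per gene without normalization. The deposited TPM are RSEM's values per effective length over every annotated gene, small RNAs included. The methods describe paired-end reads, the labels single-end reads. The deposited tables are named as stranded. Spike-in rows (92, all at 0) were left out.

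The sample titles gave the groups. Of 57820 genes, the 14044 with at least 1 CPM in some library were kept. TMM factors came from edgeR (version 4.0.16), and limma-voom (limma version 3.58.1 in R version 4.3.3) compared the groups with no covariate, as the methods of the study do. Adjusted p are two-sided, by Benjamini-Hochberg across the genes tested, and the threshold was 0.05. Exact permutation tests compared group means. Counts were rounded for edgeR's quasi-likelihood test and DESeq2 (version 1.42.0). The GC trend was removed by a loess fit (span 0.5) of each library's deviation in log2 CPM (prior count 1) over exon GC content, known for 13654 genes tested (97.2%). Gene coordinates are those of a lifted Gencode release on GRCh37, and promoters are from RefSeq. Some fits were tried on simulated counts, which were made without a GC trend between libraries. These were limma-voom, edgeR's quasi-likelihood test, DESeq2, voomWithQualityWeights, the replicate block, removal of the GC trend, and limma-trend on log2 CPM. The other alternatives were not tried in this way.

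The members and gene lists were chosen with earlier results of these data known. All 10 members were named, with up to 8 apoptosis genes in each direction by unadjusted p, *MDM2*, *CDKN1A*, *CTCF*, genes that overlap a member, and the 3 genes nearest in pattern to *BCL2* and *MCL1*. *BAK1P1*, *BOK*, *BMF*, *HRK* and *BCL2L13* were named after their values were seen. Alternatives were other tests, weights, normalizations, filters and units, the replicate number as a block, and the omission of each library.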

Additional observations from a re-analysis of the deposited data

How the results depend on the processing

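The alternatives reuse the same libraries and are not independent, and robust eBayes cannot change a log2 fold change. *BAK1* and *BBC3* stayed below 0 in all 28 alternatives run for each, and *BAX* and *BCL2L11* in 26, the exceptions being both fits to the deposited TPM. In those, 2 of 9 members were below 0, against 6 with the counts. With log2(TPM + 1) the log2 fold changes were 0.26 for *BCL2L1*, 0.20 for *BAX*, 0.24 for *BCL2L11* and 0.18 for *BID*, and with log2(TPM + 0.1) they were 0.29, 0.21, 0.27 and 0.19, all under the shift of the median gene on those scales. Members that passed numbered 2 with DESeq2, 7 with voomWithQualityWeights and 1 with the GC trend removed, where 11.5%, 68.2% and 9.71% of all genes passed, and 0 with all other alternatives that kept 6 libraries. Of 55 apoptosis genes 6, 42 and 6 passed in the same 3 fits and 3 in each fit to TPM, where 5.93% and 5.41% of all genes did, so these counts are near the shares of all genes. With the GC trend removed these were *BMF*, *BNIP3L* and *FOXO1*, higher, and *CYCS*, *AIFM1* and *DDIT3*, lower. *PMAIP1* was −0.022 and *BID* 0.021 with voomWithQualityWeights. *BID* was 0.014 with upper-quartile scaling and 0.049 with library size only. Without a filter, where the median gene moved to 0.19, *MCL1* was −0.0053 and *PMAIP1* −0.066. Removal of the GC trend gave −0.018 for *BCL2*, 0.20 for *BCL2L1*, −0.030 for *MCL1*, −0.24 for *PMAIP1* and 0.25 for *BID*, and with the replicate block added −0.018, 0.22, −0.030, −0.24 and 0.25. The cause of these reversals was not tested.

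With one library left out and no GC correction, 0 members passed and *BAK1* ranged from −1.73 to −0.97, *PMAIP1* from −0.15 to 0.16 and *BID* from −0.084 to 0.044. *PMAIP1* was −0.0071 without CTCF-WT replicate 2, and without CTCF-dRBR replicate 1 it was −0.15, *BID* 0.044, and 3 apoptosis genes passed, beside 3.90% of all genes. With the GC trend removed as well, leaving out CTCF-dRBR replicate 1 passed 2 members and 9 apoptosis genes beside 24.5% of all genes, with *BCL2L1* at 0.13, *PMAIP1* at −0.28 and *BID* at 0.17. The other omissions on that scale were chosen after the data were seen. Those of CTCF-WT replicates 1, 2 and 3 and CTCF-dRBR replicates 2 and 3 gave 0.25, 0.19, 0.18, 0.29 and 0.21 for *BCL2L1*, −0.21, −0.26, −0.25, −0.23 and −0.20 for *PMAIP1*, and 0.21, 0.23, 0.31, 0.27 and 0.32 for *BID*. From CTCF-WT replicate 2 on, *MCL1* was −0.051, −0.039, −0.076 and −0.040, and from CTCF-WT replicate 3 on *BCL2* was −0.069, −0.050 and −0.065. Without CTCF-WT replicate 3, 1 member and 4 apoptosis genes passed on that scale, beside 5.21% of all genes, and none in the other 4 of these fits. The order of mean TPM kept 7 of 10 places without CTCF-dRBR replicate 1, where *BCL2* fell behind *MCL1* and *BID*, and all 10 without any other library. The deviations of same-numbered replicates had correlations of −0.341, 0.0993 and −0.471. These were not set against differently numbered replicates, so they do not settle whether the numbers pair the samples. With the replicate block 0 members passed and *BAK1* was −1.37 (limma-voom, adjusted p = 0.419), and *BAK1* lost its call with the GC trend removed (adjusted p = 0.139). Low counts limit *BCL2A1* and *BBC3*, and intervals and floors from counts cover counting error only.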

Other observations

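Other relatives of the BCL2 family were chosen after their values were seen and are given as values only. *HRK*, a BH3-only gene of neurons, was not tested for its low counts. CTCF-WT had 1, 0 and 2 counts of it and CTCF-dRBR 10, 6 and 6. In the fit without a filter, which keeps genes of low count, the median log2 fold change of all genes was itself 0.19. *BMF*, another BH3-only gene, stood at 71.5, 70.997 and 61.6 CPM in CTCF-WT, against 48.9, 75.8 and 88.4 CPM in CTCF-dRBR, so that replicate 1 of CTCF-dRBR was the lowest and replicates 2 and 3 were the highest of all 6 libraries. *BCL2L13*, which encodes a mitochondrial relative, had 65.03 to 67.3 CPM in CTCF-WT and 44.1 to 63.2 CPM in CTCF-dRBR, without overlap.

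The relative effective length, described for *BCL2* and *BAX*, also moved for *BID*, upward, with 0.985, 0.969 and 1.05 in CTCF-WT and 1.47, 1.25 and 1.08 in CTCF-dRBR. For *BCL2L11* it lay between 0.967 and 1.03 in all 6 libraries. RSEM derives this length from the share of each isoform, which the gene-level tables do not hold, and isoforms were not analysed here.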
